A study of Mus musculus with 12 samples.

Results

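The 9 genes described here are regulators of axon growth that have been studied in the injured optic nerve, namely Rtn4, Rtn4r, Klf4, Klf6, Klf7, Klf9, Socs3, Tsc1 and Lpin1. They were chosen by symbol from the 25655 genes in the deposited tables, with earlier results of these data known. All 9 were found and passed the filter on low counts. The retinae came from C57BL/6J mice (C57BL/6 in the strain label) aged 8 to 10 weeks, in which the optic nerve of the left eye was crushed (optic nerve crush, ONC) and a single intravitreal injection followed. The injection held PBS as the control, fluvastatin (a statin, which inhibits HMG-CoA reductase), MBV (matrix-bound nanovesicles, prepared from extracellular matrix) or both agents. Whole retinae were taken 2 days after ONC, with 3 samples in each of the 4 groups, and total RNA was sequenced. Every group was injured, and no uninjured retina is among the samples. The combined treatment was not analysed here, because the headings of the count columns in its table name no library and samples were not assigned by their values, so 9 libraries remain, 3 each with PBS, fluvastatin and MBV. The study calls its samples biological replicates, but the sources do not give the number of animals behind each, and the p-values measure the spread between these samples.

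Adult retinal ganglion cells (RGCs) regrow a cut axon poorly, and both outside signals and their own programs hold growth back. Rtn4 encodes Nogo, a reticulon of the endoplasmic reticulum and the cell surface that inhibits growth cones through its receptor, the product of Rtn4r. Krüppel-like factors are zinc finger transcription factors, of which Klf4 and Klf9 are known to suppress axon growth and Klf6 and Klf7 to promote it, so that Klf6 and Klf7 are not brakes themselves. Socs3 is the feedback inhibitor of cytokine signalling through gp130, JAK kinases and STAT3. Tsc1 holds the kinase complex mTORC1 in check, and Lpin1 is a phosphatidate phosphatase that directs lipid towards triglyceride storage.

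The 9 libraries held 21349516 to 30992040 counts on genes. Levels are given as CPM, that is, counts relative to library size, with library sizes scaled by TMM, and differences are on the log2 scale with their standard error (SE). A gene is said to have risen or fallen when its false discovery rate (FDR) was under 0.05 by the quasi-likelihood test of edgeR, adjusted after Benjamini-Hochberg over all genes. In the labels, PBS shares a set of library numbers with the combined treatment, and fluvastatin shares another set with MBV. Comparisons with PBS thus run across the sets, where set and treatment cannot be told apart, and only MBV and fluvastatin were compared within a set. Markers of rods and cones summed to 29910 to 46550 CPM per library and those of RGCs to 674 to 990 CPM, so the libraries held retina. In bulk samples such as these, fewer cells of a type and less RNA per cell cannot be told apart.

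Compared to PBS, Rtn4 fell and Klf6 and Klf7 rose with both treatments. Tsc1 rose with fluvastatin, and Klf9 and Lpin1 rose with MBV. Socs3, Klf4 and Rtn4r did not pass the test in any comparison. With fluvastatin, 3 of the 9 genes rose and 1 fell, against 12.3% and 12.7% of the 15129 genes tested, or 25% in either direction. With MBV, 4 rose and 1 fell, against 16.1% and 17.5% of the 15193 genes tested, or 33.7% in either direction. The median difference of the 9 genes was 0.17 with fluvastatin and 0.27 with MBV, whereas that of all genes was 0.00 and 0.01. None of the 9 genes reached a fold change of 2 together with an FDR under 0.05, which 194 genes did with fluvastatin and 337 with MBV. The libraries of the groups did not overlap for 5 of the 9 genes with fluvastatin (43.3% of all genes) and for 7 with MBV (49% of all genes).

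**Figure D1:**
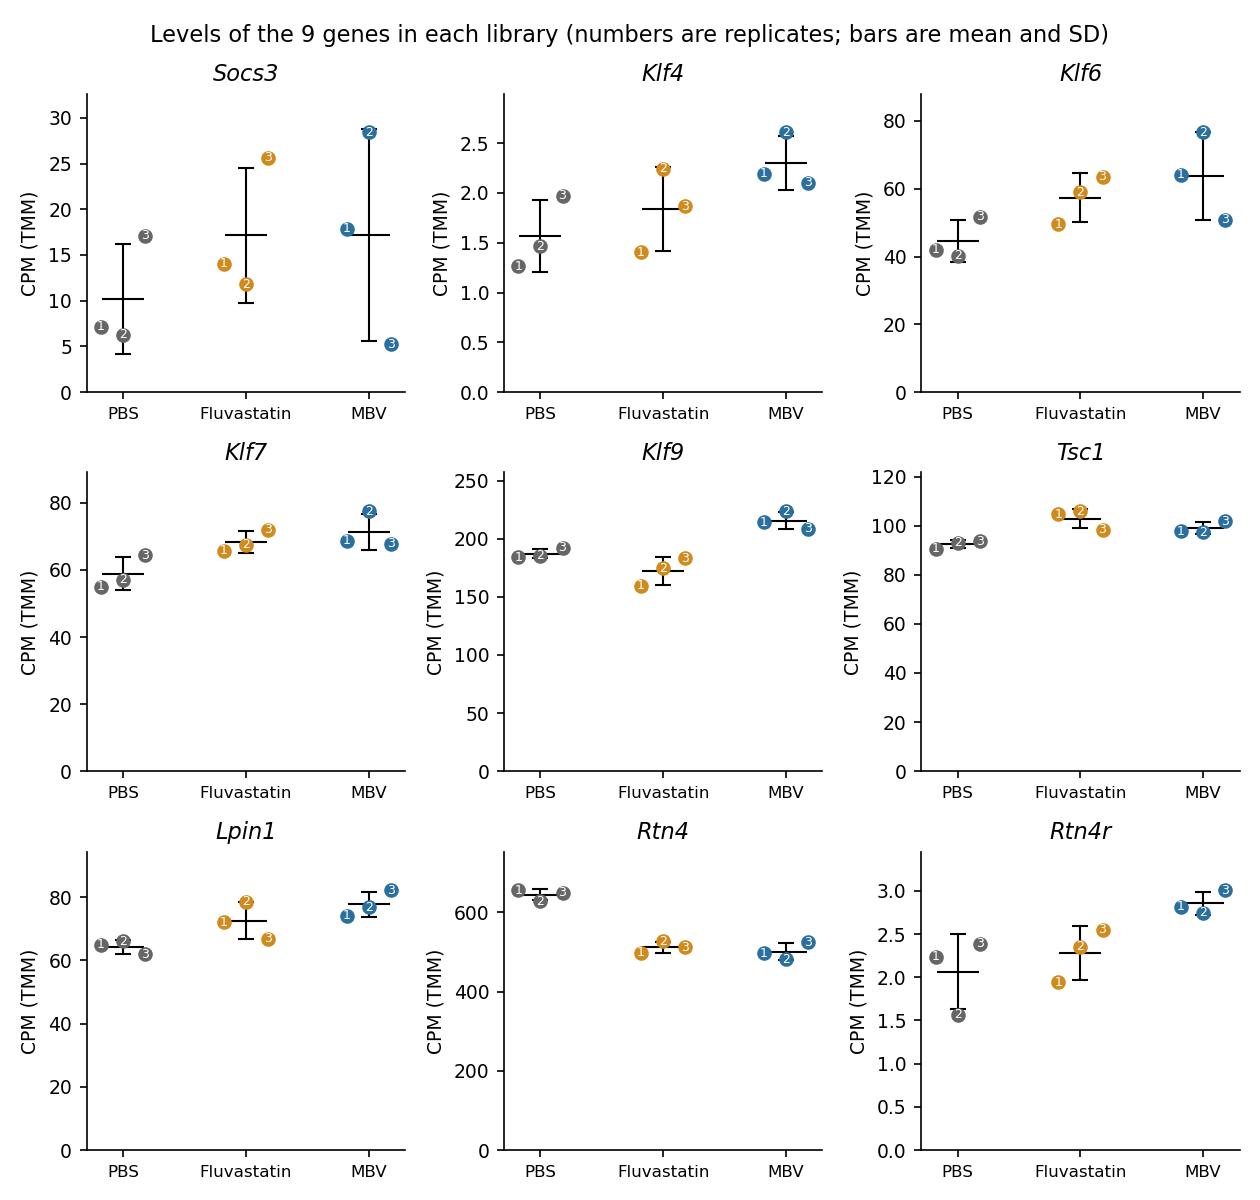
Levels of the 9 genes in CPM on TMM-scaled library sizes (vertical axes, from 0), by treatment group (horizontal axes). Each point is 1 library, numbered by replicate, and the bars are the mean and SD of 3 libraries. The 3 PBS libraries of Rtn4 lie between 628 and 655 CPM, above all 6 libraries of the treatments, whereas those of Socs3 spread within every group.

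Per kilobase of exonic length, Rtn4 was the most abundant of the 9 genes in the PBS retina, with a mean level of 82.1 CPM per kb. Klf9 followed at 22.8, Klf6 at 10.0, Klf7 at 6.95, Tsc1 at 6.39, Lpin1 at 5.41, Socs3 at 2.86, Rtn4r at 0.901 and Klf4 at 0.498 CPM per kb. Neighbours in this order did not overlap among the PBS libraries. The mean of Socs3 stayed between those of Lpin1 and Rtn4r with both treatments, at 4.82 CPM per kb with each, but its single libraries ranged from 3.32 to 7.19 CPM per kb with fluvastatin and from 1.47 to 7.98 with MBV and overlapped those of Lpin1 and Tsc1. Klf4 and Rtn4r rest on 34 to 60 and 46 to 77 counts per library, so only sizeable differences were detectable for these genes.

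Rtn4 (ENSMUSG00000020458, GRCm39 chromosome 11, 29642947 to 29694331, plus strand) had 655, 628 and 650 CPM in the PBS libraries. It had 498, 527 and 512 CPM with fluvastatin and 497, 482 and 524 CPM with MBV. All 6 treated libraries lay below all 3 PBS libraries, and the treated groups overlapped each other. Rtn4 fell by 20.6% with fluvastatin (log2 difference -0.33, SE 0.0407, FDR 0.00196) and by 22.7% with MBV (log2 difference -0.37, SE 0.0449, FDR 0.00140). It passed the test in 11 of 11 alternative settings in each comparison, those without each library included. The difference between MBV and fluvastatin was -0.03 (95% confidence interval -0.15 to 0.09). Rtn4 overlaps Eml6, a protein-coding gene on the opposite strand, and whether the counting used strand is not given in the sources used here. Eml6 itself differed from PBS by 0.00 (FDR 0.981) with fluvastatin and by -0.05 (FDR 0.547) with MBV.

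Rtn4r (ENSMUSG00000043811, chromosome 16, 17945506 to 17970272, plus strand), which encodes the Nogo receptor, had 2.24, 1.57 and 2.39 CPM with PBS. The levels were 1.94, 2.36 and 2.55 CPM with fluvastatin and 2.82, 2.74 and 3.00 CPM with MBV. The MBV libraries lay above all others, while fluvastatin and PBS overlapped. The difference from PBS was 0.15 (95% confidence interval -0.34 to 0.63, FDR 0.643) with fluvastatin and 0.46 (95% confidence interval 0.01 to 0.91, FDR 0.103) with MBV. Neither passed the test.

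A list of 20 reticulons, Nogo receptors and their partners held 18 genes that passed the filter with fluvastatin and 19 with MBV. With fluvastatin 3 rose and 5 fell (median difference 0.06), and with MBV 3 rose and 3 fell (median difference 0.11), beside medians of all genes at 0.00 and 0.01. Of all genes, 25% passed in either direction with fluvastatin and 33.7% with MBV. Omg, which encodes another ligand of the Nogo receptor, had 24.0, 25.0 and 22.4 CPM with PBS, 19.4, 19.4 and 18.2 CPM with fluvastatin and 14.2, 14.5 and 14.6 CPM with MBV. It fell by 0.33 (SE 0.0666, FDR 0.00958) with fluvastatin and by 0.73 (SE 0.0636, FDR 0.000921) with MBV on the log2 scale, and the 3 groups did not overlap. Rtn4rl2, a homologue of the Nogo receptor, rose by 0.37 (FDR 0.0206) and by 0.48 (FDR 0.00333), and Ngfr, the p75 co-receptor, rose by 0.36 (FDR 0.0102) and by 0.47 (FDR 0.0218). The other receptor and co-receptor genes of the list, Rtn4r, Rtn4rl1, Lingo1, Tnfrsf19, Pirb and S1pr2, did not pass the test in either comparison. Among the other reticulons, Rtn3 fell by 0.13 (FDR 0.0449) and 0.15 (FDR 0.0376), while Rtn1 and Rtn2 did not pass the test. Of the remaining genes that passed with fluvastatin, Olfm1 rose and Rhoa and Rock1 fell, and the remaining gene with MBV, Mog, rose at 0.461 CPM against 0.162 CPM with PBS. Myelin markers summed to 61.7 to 66.3 CPM with PBS, 61.9 to 70.2 with fluvastatin and 73.5 to 76.2 with MBV, with Mag at no more than 0.320 CPM and Mobp at no more than 0.515 CPM in any library. The part of these markers in the Rtn4 and Omg values was not tested.

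**Figure D2:**
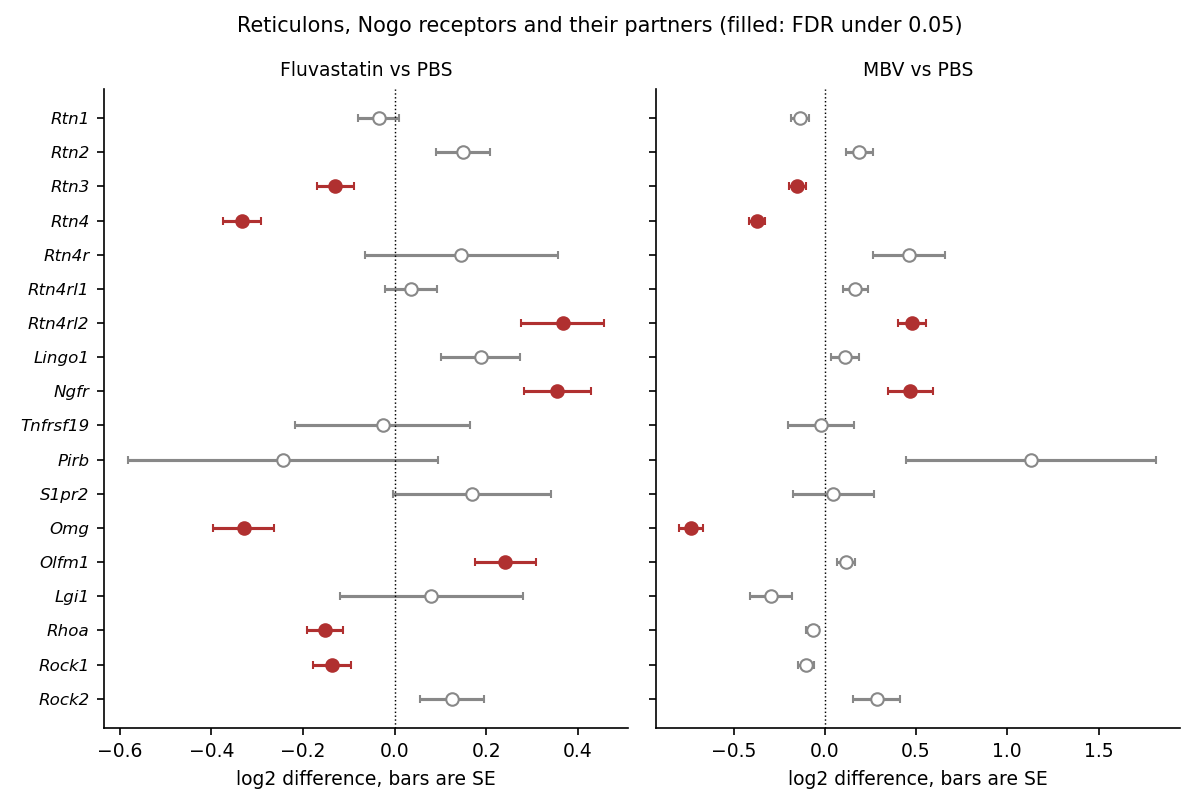
Log2 difference from PBS (horizontal axes) of the 18 reticulon and Nogo receptor genes tested in both comparisons, with fluvastatin on the left and MBV on the right. The panels have separate scales. Points are estimates, bars are standard errors, and filled points have an FDR under 0.05. Rtn4 and Omg lie below 0 in both panels, and Rtn4rl2, Ngfr and Olfm1 above 0.

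Of the growth-promoting factors, Klf6 (ENSMUSG00000000078, chromosome 13, 5911481 to 5920393, plus strand) had 42.0, 40.2 and 51.8 CPM with PBS. It had 49.5, 58.9 and 63.6 CPM with fluvastatin and 64.1, 76.6 and 50.8 CPM with MBV. Both treated groups overlapped with PBS, through PBS replicate 3 and the lowest library of each treatment. Klf6 rose by 0.36 (SE 0.113, FDR 0.0466) with fluvastatin and by 0.51 (SE 0.150, FDR 0.0342) with MBV. Klf7 (ENSMUSG00000025959, chromosome 1, 64068606 to 64161441, minus strand) had 55.0, 57.1 and 64.4 CPM with PBS, 65.7, 67.5 and 72.0 CPM with fluvastatin and 68.7, 77.4 and 67.8 CPM with MBV. All treated libraries lay above the PBS libraries, the nearest by little. Klf7 rose by 0.22 (SE 0.0663, FDR 0.0442) with fluvastatin and by 0.27 (SE 0.0745, FDR 0.0276) with MBV. The calls of both genes were close to the threshold. They were lost in both comparisons without PBS replicate 1 or 2, with fluvastatin also without its replicate 2 or 3, and with MBV also without its replicate 1 or 2. The FDR then lay between 0.0547 and 0.154. In 1 fit of all 9 libraries the FDR with fluvastatin was 0.102 for Klf6 and 0.0503 for Klf7. Both remained higher than PBS in all 11 settings, by 0.28 to 0.48 (fluvastatin) and 0.36 to 0.65 (MBV) for Klf6, and by 0.18 to 0.28 and 0.21 to 0.33 for Klf7.

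Of the growth-suppressing factors, Klf9 (ENSMUSG00000033863, chromosome 19, 23118590 to 23145498, plus strand) had 184, 185 and 192 CPM with PBS. It had 160, 175 and 183 CPM with fluvastatin and 214, 224 and 209 CPM with MBV. The 3 groups did not overlap, with fluvastatin lowest and MBV highest, though the highest fluvastatin library was close to the lowest PBS library. Klf9 rose by 0.19 (SE 0.0404, FDR 0.00952) with MBV, and its difference from PBS with fluvastatin was -0.12 (95% confidence interval -0.24 to 0.00, FDR 0.130). Without PBS replicate 1 the FDR with MBV was 0.0539. Klf4 (ENSMUSG00000003032, chromosome 4, 55527143 to 55532466, minus strand) had 1.26, 1.47 and 1.97 CPM with PBS, 1.40, 2.24 and 1.87 CPM with fluvastatin and 2.19, 2.61 and 2.10 CPM with MBV. Fluvastatin and PBS overlapped, whereas the MBV libraries lay just above the highest PBS library. Its difference from PBS was 0.24 (95% confidence interval -0.33 to 0.81, FDR 0.509) with fluvastatin and 0.55 (95% confidence interval 0.04 to 1.06, FDR 0.0901) with MBV. Without PBS replicate 3 the MBV value was 0.74 (FDR 0.0463).

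Of the 17 Krüppel-like factors, 14 passed the filter. With fluvastatin 3 rose and none fell, which are Klf6, Klf7 and Klf12 (0.20, FDR 0.0131). With MBV 6 rose and none fell, which are Klf6, Klf7, Klf9, Klf12 (0.25, FDR 0.0143), Klf13 (0.47, FDR 0.0121) and Klf15 (0.28, FDR 0.0292). Of all genes, 12.3% rose with fluvastatin and 16.1% with MBV. The median difference over the family was -0.01 with fluvastatin and 0.22 with MBV, beside 0.00 and 0.01 for all genes. The 17 genes summed to 529 to 568 CPM with PBS, 542 to 597 with fluvastatin and 628 to 691 with MBV.

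Socs3 (ENSMUSG00000053113, chromosome 11, 117856905 to 117860873, minus strand) had the widest spread of the 9 genes. Its levels were 7.13, 6.27 and 17.1 CPM with PBS, 14.1, 11.8 and 25.6 CPM with fluvastatin, and 17.9, 28.4 and 5.24 CPM with MBV. The highest and the lowest of the 9 libraries were both MBV libraries, and PBS replicate 3 lay among the treated ones. The coefficient of variation was 59.1% with PBS, 43.1% with fluvastatin and 67.6% with MBV. Its within-group SD of 0.88 on the log2 scale was larger than that of 99.5% of 15240 genes, whereas Tsc1 and Rtn4 stood at 7.45% and 10.7%. The difference from PBS was 0.76 with either treatment, with a 95% confidence interval of -0.15 to 1.67 (FDR 0.192) for fluvastatin and -0.57 to 2.08 (FDR 0.336) for MBV. It passed the test with fluvastatin when PBS replicate 3 was left out (1.35, FDR 0.0212) and with MBV when MBV replicate 3 was left out (1.19, FDR 0.0359). Over the alternatives it ranged from 0.36 to 1.35 with fluvastatin and from 0.20 to 1.34 with MBV. Socs3 overlaps the lncRNA genes Gm73339 and Gm57366 on the opposite strand.

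Socs3 was high and low in the same libraries as several genes of the cytokine pathway that it inhibits. After its values had been seen, Socs3 was set against 44 genes, namely the other 8 members, the cytokine signalling list, reactive glia markers and immediate early genes, on log2(CPM + 0.5) over the 9 libraries. Stat3, the transcription factor downstream of gp130, had 87.2, 83.8 and 155 CPM with PBS, 136, 120 and 180 CPM with fluvastatin, and 185, 240 and 101 CPM with MBV. It was high and low in the same libraries as Socs3 (Pearson r 0.945 and Spearman rho 0.933, with exact permutation p-values adjusted over the 44 relations of 0.00294 and 0.00660). Of the receptor genes, 2 went the same way, with r 0.932 and rho 0.983 for Il6st, which encodes gp130 (adjusted exact permutation p 0.00271 and 0.00218), and r 0.919 and rho 0.917 for Osmr, the oncostatin M receptor (0.00701 and 0.00825). Over the 9 libraries the other 3 receptor genes of the list did not pass, with r 0.550 for Il6ra, 0.368 for Lifr and 0.327 for Cntfr (adjusted exact permutation p 0.266, 0.487 and 0.501), nor did the kinases Jak1 (-0.281, 0.548) and Jak2 (-0.289, 0.543). Junb, an immediate early gene, did go the same way as Socs3 (r 0.955 and rho 0.967, adjusted exact permutation p 0.00271 and 0.00364). So did Cebpd, a transcription factor of reactive glia (0.921 and 0.933, 0.00701 and 0.00660), and Fgf2, a growth factor of reactive glia (0.960 and 0.933, 0.00271 and 0.00660). These 6 genes had an r above 0.9. The share of all genes with such an r was not counted. Over 15239 genes the highest r belonged to Naa35 (0.980) and Scube1 (0.977), which are in none of these lists, so a link particular to the pathway was not tested. After PBS replicate 2 and MBV replicate 3, the libraries farthest from the median of Socs3, were left out, r of the 6 genes was 0.931 to 0.971 over 7 libraries. Within the set of fluvastatin and MBV libraries (n = 6) it was 0.905 to 0.963, and after subtraction of the group means 0.957 to 0.994. The other set held only the 3 PBS libraries. After subtraction of the group means, Il6ra had an r of 0.829 and the immediate early gene Fos of 0.965, against 0.675 for Fos without it. Lifr (-0.0177), Cntfr (0.332), Jak1 (0.0383) and Jak2 (0.0311) stayed low by this measure. The permutations exchanged all 9 libraries freely, so their p-values also hold differences between the groups and sets.

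**Figure D3:**
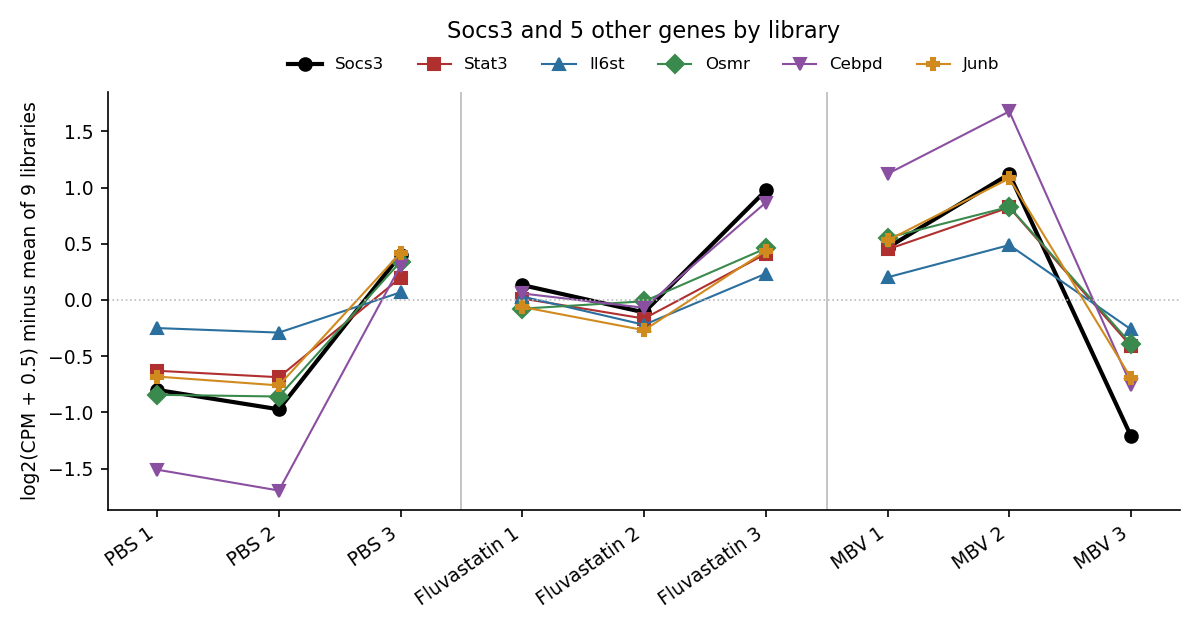
Socs3 and 5 genes of the cytokine signalling, reactive glia and immediate early lists in each library (horizontal axis). Values are log2(CPM + 0.5) minus the mean of the 9 libraries (vertical axis). Lines join the libraries of a group, whose order carries no meaning. All 6 genes are lowest with MBV replicate 3 and highest with MBV replicate 2 among the MBV libraries, and highest with replicate 3 among the PBS and the fluvastatin libraries.

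The 7 reactive glia markers summed to 257, 248 and 540 CPM with PBS, 432, 383 and 591 CPM with fluvastatin, and 571, 740 and 330 CPM with MBV. None of them passed the test in any comparison. Stat3, Cebpd and Fgf2 belong to both these sums and the relations above. Markers of Müller glia summed to 3710, 3581 and 3073 CPM with PBS, 2980, 1940 and 1733 with fluvastatin, and 2104, 1590 and 2946 with MBV. Much of these sums was Glul, with 2585, 2487 and 1909 CPM with PBS and 1121, 599 and 1972 CPM with MBV. Among the MBV libraries Glul, Apoe and Aqp4 were highest in replicate 3, whereas Vim, Sox9, Slc1a3 and Rlbp1 were lowest there. The monocyte and macrophage markers were highest in the library with the lowest Socs3 level (262 CPM with MBV replicate 3, against 72.9 to 161 CPM elsewhere). Fn1, which codes for fibronectin and is not specific to these cells, made up much of the sums, and without it the other 8 markers summed to 133 CPM in that library and to 11.8 to 33.1 CPM in the others. Without this library, 5 of the 9 genes rose with MBV and 1 fell, with Socs3 as the added call. Calls over all genes were also more numerous then, with 5629 of 15121 genes (2722 higher and 2907 lower), against 5116 of 15193 with it. The part of these cells in the Socs3 values was not tested. Of the other members, Klf6 was closest to Socs3 over the libraries (r 0.821 and rho 0.817, adjusted exact permutation p 0.0315 and 0.0527), followed by Klf7 (0.730 and 0.667, adjusted exact permutation p 0.0719 and 0.144). Klf9 had an r of 0.178 and Rtn4 of -0.50 (adjusted exact permutation p 0.744 and 0.328).

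Of the 20 genes of the cytokine signalling list, all of which passed the filter, 2 rose and 2 fell with fluvastatin, where 25% of all genes passed. These were Lifr, the receptor of leukaemia inhibitory factor (0.24, FDR 0.00342), and Socs7 (0.19, FDR 0.00901), which were higher, and Socs4 (-0.24, FDR 0.00667) and Socs6 (-0.25, FDR 0.0413). With MBV, where 33.7% of all genes passed, 6 rose and 4 fell, with the smallest FDRs among those that rose for Lifr (0.30, FDR 0.00137), Socs7 (0.26, FDR 0.00195) and Il6ra, the interleukin-6 receptor (1.29, FDR 0.00782). The levels of Socs4, Socs5, Socs6, Jak1 and Jak2 were lower in every MBV library than in any PBS library. Lifr had 212 to 216 CPM with PBS, 248 to 256 with fluvastatin and 258 to 270 with MBV. It thus showed little spread within a group, unlike Socs3, Stat3 and Osmr.

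The promoters of Socs3 and Klf9 are shown because they alone among the 9 genes held the STAT-type letters TTCNNNGAA in the window from 250 bases before to 50 bases after a gene start. The sequences are from RefSeq on GRCm38.p6, where all 9 genes matched, with 11 windows. The letters read the same on both strands and occur in 8.29% of 32817 such windows. Capitals mark the match, which begins 154 bases before the start in Socs3 (chr11:117969317-117969616, minus strand) and 33 bases before it in Klf9 (chr19:23140976-23141275, plus strand).
Socs3: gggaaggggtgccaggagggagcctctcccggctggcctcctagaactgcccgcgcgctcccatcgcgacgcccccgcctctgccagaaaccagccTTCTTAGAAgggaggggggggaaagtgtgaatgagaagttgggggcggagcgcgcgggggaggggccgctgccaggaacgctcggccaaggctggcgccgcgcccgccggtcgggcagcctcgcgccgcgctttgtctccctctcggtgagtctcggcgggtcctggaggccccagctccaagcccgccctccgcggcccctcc
Klf9: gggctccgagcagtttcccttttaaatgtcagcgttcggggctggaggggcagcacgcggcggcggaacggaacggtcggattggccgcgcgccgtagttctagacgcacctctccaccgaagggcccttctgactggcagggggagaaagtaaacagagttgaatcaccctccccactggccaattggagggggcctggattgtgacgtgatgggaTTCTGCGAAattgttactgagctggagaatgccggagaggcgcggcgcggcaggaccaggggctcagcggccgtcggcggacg
Over the 9 libraries the levels of Socs3 and Klf9 had the r of 0.178 given above. The letters CCNCNCCC, searched on both strands for Krüppel-like factors, occurred in 8 of the 11 windows and in 49.5% of all windows. A match of letters is a description of these windows and no evidence of binding.

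Tsc1 (ENSMUSG00000026812, chromosome 2, 28531240 to 28581179, plus strand) had 90.5, 93.1 and 93.6 CPM with PBS, 105, 106 and 98.4 CPM with fluvastatin, and 97.7, 97.3 and 102 CPM with MBV. All treated libraries lay above the PBS libraries. Tsc1 rose by 0.15 (SE 0.0446, FDR 0.0361) with fluvastatin, the smallest of the calls, and its difference with MBV was 0.09 (95% confidence interval 0.00 to 0.18, FDR 0.108). The call with fluvastatin was lost without any library other than fluvastatin replicate 3 (FDR 0.0549 to 0.130). Among 19 genes of the TSC complex and mTORC1, all tested, 3 rose and 4 fell with fluvastatin, and 4 rose and 4 fell with MBV, where 25% and 33.7% of all genes passed in either direction. Rheb, the small GTPase that the TSC complex inactivates, had 53.1, 52.0 and 54.9 CPM with PBS, 37.6, 38.0 and 43.1 CPM with fluvastatin and 38.7, 39.9 and 41.1 CPM with MBV. It fell by 0.43 (FDR 0.00301 with fluvastatin and 0.00106 with MBV). Rps6, a ribosomal protein phosphorylated downstream of mTORC1, rose by 0.36 (FDR 0.00610) and 0.28 (FDR 0.00184). Sesn1, a stress-induced inhibitor of mTORC1, fell by 0.29 with fluvastatin (FDR 0.00705), and Ddit4, another such inhibitor, fell by 0.34 with MBV (FDR 0.00420). The list's median difference was -0.03 with fluvastatin and -0.04 with MBV.

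Lpin1 (ENSMUSG00000020593, chromosome 12, 16585670 to 16696967, minus strand) had 65.0, 66.0 and 61.9 CPM with PBS, 72.1, 78.5 and 66.8 CPM with fluvastatin and 74.1, 76.9 and 82.1 CPM with MBV. All treated libraries lay above the PBS libraries. Lpin1 rose by 0.26 (SE 0.0521, FDR 0.00765) with MBV, and did so in 11 of 11 alternative settings (0.22 to 0.30). With fluvastatin the difference was 0.17 (95% confidence interval 0.03 to 0.32, FDR 0.0824), and 0.23 without fluvastatin replicate 3 (FDR 0.0401). Of 15 genes of glycerolipid synthesis, 2 rose and 3 fell with fluvastatin, and 3 rose and 3 fell with MBV, Lpin1 included, beside the same 25% and 33.7% of all genes. Chpt1, which makes phosphatidylcholine from diacylglycerol, fell by 0.34 (FDR 0.00382) with fluvastatin and by 0.30 (FDR 0.00351) with MBV. Pcyt2, an enzyme of phosphatidylethanolamine synthesis, rose by 0.50 (FDR 0.00327) with fluvastatin and by 0.26 (FDR 0.0112) with MBV. Cept1, another phospholipid enzyme, fell by 0.24 (FDR 0.00959) and by 0.20 (FDR 0.0161). Agpat1, which makes phosphatidic acid, rose by 0.24 (FDR 0.0158) with fluvastatin and by 0.28 (FDR 0.00334) with MBV. Gpam, which catalyses the first step of the pathway, fell by 0.17 (FDR 0.0484) and by 0.27 (FDR 0.00582).

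MBV and fluvastatin, the comparison within a set of library numbers, gave no call among the 9 genes in edgeR's quasi-likelihood test. Only 5 of 15045 genes passed (0.0332%, with 0.00665% higher and 0.0266% lower), and 1883 genes had an unadjusted p-value under 0.05, so a count of 0 is near what the background gives. Klf9 had the smallest p-value of the 9 genes (0.00056), and was 0.32 higher with MBV (SE 0.0590, 95% confidence interval 0.19 to 0.46, FDR 0.167), and all 3 MBV libraries lay above all 3 fluvastatin libraries. DESeq2 called 126 genes, Klf9 among them (0.32, adjusted p 0.00153). The groups did not overlap for 2 of the 9 genes, Klf9 and Rtn4r, and for 18.6% of all genes. The difference of Rtn4r was 0.32 (95% confidence interval -0.07 to 0.72, FDR 0.469). For Socs3 it was 0.00, with a 95% confidence interval of -1.18 to 1.18 that allows a sizeable difference either way. For Klf4 the difference was 0.32 (95% confidence interval -0.19 to 0.83, FDR 0.579), and for Klf6, Klf7, Tsc1 and Lpin1 it was 0.15, 0.06, -0.06 and 0.10.

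**Figure D4:**
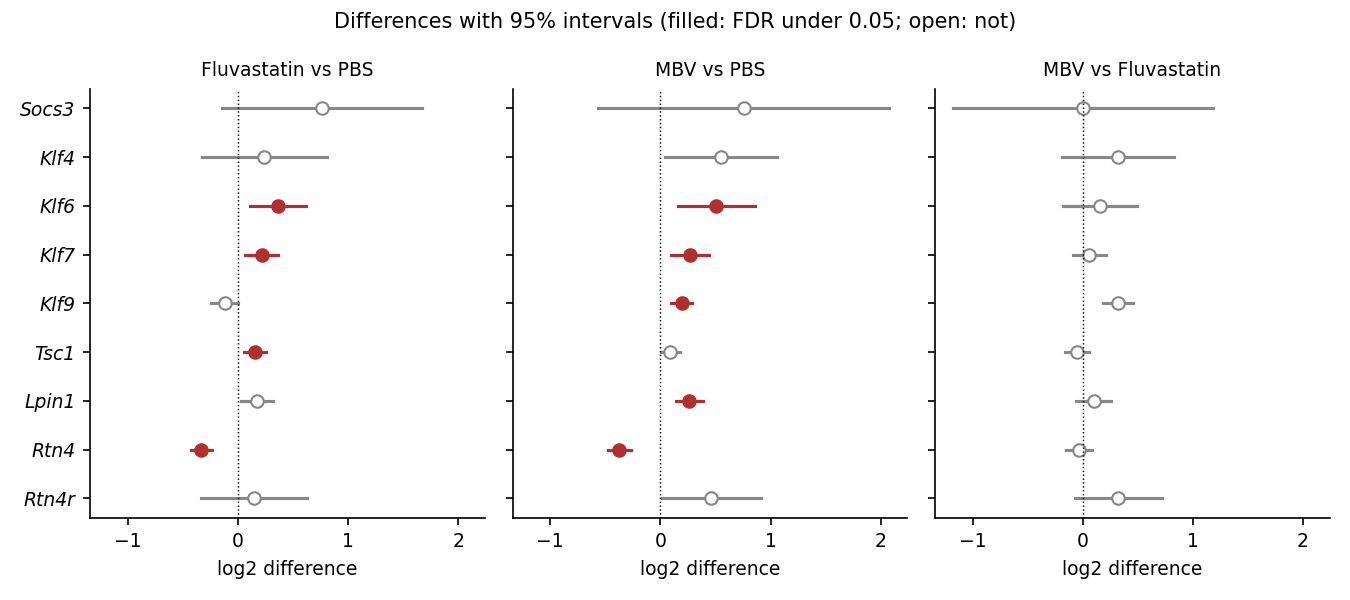
Log2 differences of the 9 genes (horizontal axes) in 3 comparisons, with 95% confidence intervals as lines. Filled points have an FDR under 0.05 in edgeR's quasi-likelihood test. Rtn4 lies below 0 with a narrow interval in both comparisons with PBS and at -0.03 between MBV and fluvastatin, and Socs3 has the widest interval in each panel.

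Marker genes of several cell types also differed from PBS. The pigment epithelium and melanocyte markers summed to 98.5 to 146 CPM with PBS, 36.0 to 44.9 with fluvastatin and 27.1 to 50.5 with MBV, and 5 of 6 fell with each treatment. Lens markers summed to 0.909 to 5.41 CPM with PBS, 2.42 to 20.9 with fluvastatin and 60.4 to 156 with MBV, and 5 of the 6 tested rose with MBV. Of the rod and cone markers, 1 of 8 fell with fluvastatin and 4 with MBV, and of the 7 Müller glia markers 4 and 2 fell. Of the 11 RGC markers, 3 rose with fluvastatin, and 1 rose and 1 fell with MBV. Among the 6 endothelial markers, 1 fell with fluvastatin and 1 rose with MBV, and 1 of 7 microglia markers fell with each. Of the 7 monocyte and macrophage markers tested, 1 rose and 2 fell with fluvastatin and 1 rose with MBV, and of the 3 neutrophil markers tested 1 rose with each. With MBV, 3 of the 4 myelin markers tested and 1 of the 11 immediate early genes rose, and with fluvastatin none of either passed the test. These counts stand beside the 25% and 33.7% of all genes that passed with fluvastatin and MBV. Their part in the differences of the 9 genes from PBS was not tested.

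The genes most like each member over the 9 libraries, by Pearson's r of log2(CPM + 0.5) among 15239 genes, differed from member to member. For Rtn4 they were Cdkl2 (0.996) and 5730455P16Rik (0.990), and for Rtn4r Capn5 and Gna12 (0.957 each). Klf6 was closest to Tagln2 (0.993) and Msn (0.992), which encode proteins of the actin cytoskeleton, and Klf7 to Plk2 (0.991) and Ppm1g (0.985). For Klf9 the genes were Nanos2 (0.981) and P4ha1 (0.959), and for Klf4 Myo1c (0.964) and Hapln4 (0.963). Socs3 was closest to Naa35 (0.980) and Scube1 (0.977), Tsc1 to Sh3kbp1 (0.986) and mt-Atp8 (0.983), and Lpin1 to Luzp1 (0.978) and Nin (0.958). These are the highest of many values over few libraries that also hold the group differences, and they are given as a description.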

How the data were processed

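Bulk RNA-seq of whole retinae was available as 4 tables, each for a comparison of 2 groups. The authors used CLC Genomics Workbench to align reads to GRCm39, and deposited raw counts per gene, which are not normalized. The tables also hold the authors' fold changes, p-values and FDRs, which were not used. The 9 named libraries occur in more than one table, with identical counts. In the combined treatment's table, 6 count columns name no library in their headings and were not used, since samples were not assigned by matching values. The analysis used edgeR 4.0.16 (R 4.3.3). Genes with more than 10 counts in at least 2 libraries of a group were kept, following the study's methods, scaled by TMM, and tested in fits of 2 groups with edgeR's quasi-likelihood method, with Benjamini-Hochberg adjustment over all genes. Simulated counts were used to test the procedure. Alternatives were RLE scaling, genes with any count, DESeq2 1.42.0, the replicate number as a block, a fit of 9 libraries, and leaving out each library. All 9 members are named, the 3 genes of smallest FDR in each pathway list and comparison, and the 2 genes most like each member. Further genes of these lists (Ngfr, Rtn4rl2, Agpat1, Gpam, Cept1 and Pcyt2 in both comparisons, Rtn1, Rtn2, Rtn3, Mog, Olfm1, Rhoa, Rock1, Klf12, Klf15 and Socs6), Eml6 and the relations of Socs3 were chosen after their values were seen. So were Socs4, Socs5, Jak1 and Jak2 with MBV. The members and lists were chosen with earlier results of these data known. Positions are from the deposited tables, and overlapping genes and exonic lengths from GENCODE. The reads carry no molecular identifiers, and intervals come from the spread between libraries.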

Additional observations from a re-analysis of the deposited data

How the results depend on the processing

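The fall of Rtn4 with both treatments and the rise of Lpin1 with MBV passed the test in all 11 alternatives, which left 1 member lower in every setting of these 2 comparisons. The number of members that rose with fluvastatin was 1 in 1 fit of 9 libraries and 0 to 3 when a library was left out (0 without PBS replicate 1, PBS replicate 2 or fluvastatin replicate 2), against 3. With MBV it was 1 to 5 when a library was left out (1 without PBS replicate 1), against 4. Over all genes, leaving out a library gave 1678 to 4361 calls with fluvastatin and 2744 to 5629 with MBV, both lowest without PBS replicate 1, and 0 to 23 between MBV and fluvastatin, with 23 without MBV replicate 3. Between MBV and fluvastatin, calls numbered 1 with RLE scaling, 11 over genes with any count, 126 with DESeq2 (1 member, Klf9) and 16 in 1 fit of 9 libraries. The cause of these changes was not tested, except that a fit with a library left out has fewer samples. Signs turned for Rtn4r with fluvastatin without PBS replicate 2 (-0.017, with -0.017 to 0.256 when a library was left out), for Klf7 between MBV and fluvastatin without MBV replicate 2 (-0.003, with -0.003 to 0.094 when a library was left out), and for Socs3 between MBV and fluvastatin, whose value of 0.00 lies at the turning point. There Socs3 was 0.00 over genes with any count and with DESeq2, -0.12 with the replicate block, and -0.56 to 0.43 when a library was left out, namely -0.12 without fluvastatin replicate 1, -0.21 without fluvastatin replicate 2, -0.03 without MBV replicate 1 and -0.56 without MBV replicate 2. The correlation of the deviations of same-numbered samples was -0.364 to 0.155, and that of differently numbered samples -0.279 to 0.342. Deviations from means of 3 samples are tied to each other, so these values do not settle whether the replicate numbers pair the samples. With the number as a replicate block, Socs3 passed with fluvastatin (0.81, FDR 0.00365), the calls of Tsc1 with fluvastatin (FDR 0.0588) and of Klf6 with MBV (FDR 0.0830) were lost, and 3644 genes were called with fluvastatin, 4050 with MBV and 0 between the treatments. The combined treatment against PBS, both main effects and the interaction were not run, because the headings of the count columns in its table name no library and samples were not assigned by their values. Klf4 and Rtn4r, with 34 to 77 counts per library, are limited by depth.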
